A study of Mus musculus with 12 samples.

Results

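The 37 genes described here are known imprinted genes of the mouse that lie outside the Prader-Willi cluster of chromosome 7. They were chosen by gene symbol from knowledge of imprinting, with no threshold on their values, and all 37 were found among the 27179 gene IDs of the count table. Of these, 36 passed the filter on low counts, a level at or above 0.2 CPM (read counts scaled to the total of the library for this filter, and to TMM-normalized totals in the values given below) in 2 or more mice, and were tested among 17937 genes. The gene left out by the filter was *Phlda2*. The counts came from RNA sequencing of the hippocampus of 12 mice aged 3 months. There were 6 *Nell-1+/6R* mice, heterozygous for 6R, an ENU-induced loss-of-function allele of *Nell-1*, and 6 WT littermates, each genotype with 3 females and 3 males. Every mouse gave 1 library, with total counts of 10834905 to 16016317. The 10 markers of hippocampal principal neurons were all measured, with summed levels of 7349.95 to 10616 CPM in WT against 7907 to 9282 CPM in *Nell-1+/6R*.

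An imprinted gene is transcribed mainly from the copy inherited from the father or mainly from the copy inherited from the mother, and the choice is kept through cell divisions by DNA methylation at control regions laid down in the germ line. The genes lie in clusters in which protein-coding genes and long noncoding RNAs are often expressed from opposite parental copies. In the brain, imprinted genes are known for roles in growth factor signalling, thyroid hormone supply, neuronal excitability and social or parental behaviour. The list was grouped into 18 genes known for paternal expression, 16 known for maternal expression, and 3 (*Grb10*, *Ddc* and *Gnas*) whose expressed copy switches with tissue or transcript. Among the 18 and the 16, too, imprinting can be limited to some tissues or transcripts, as for *Igf2*, *Igf2r* and *Inpp5f*. The counts do not separate the parental copies, so every value below is the sum over both.

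The start regions of 4 genes of the Dlk1-Dio3 domain on chromosome 12 are shown because the largest part of the results below concerns that domain, together with the start region of *Peg3*, the gene that followed most closely a score of long transcripts. Each is a RefSeq window of GRCm38.p6 from 250 bases before to 50 bases after a transcription start, written 5′ to 3′ on the strand of the gene with every CpG in capitals. The windows are chr12:109452573-109452872 on the plus strand for *Dlk1*, chr12:109540746-109541045 on the plus strand for *Meg3*, chr12:109603695-109603994 on the plus strand for *Rian*, chr12:110278980-110279279 on the plus strand for *Dio3*, and chr7:6730370-6730669 on the minus strand for *Peg3*.
Dlk1: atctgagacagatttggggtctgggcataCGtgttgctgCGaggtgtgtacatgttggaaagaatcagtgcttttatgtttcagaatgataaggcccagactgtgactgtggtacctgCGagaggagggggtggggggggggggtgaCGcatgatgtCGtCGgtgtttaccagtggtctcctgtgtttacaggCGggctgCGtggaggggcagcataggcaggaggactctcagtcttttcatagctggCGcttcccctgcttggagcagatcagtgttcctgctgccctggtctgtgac
Meg3: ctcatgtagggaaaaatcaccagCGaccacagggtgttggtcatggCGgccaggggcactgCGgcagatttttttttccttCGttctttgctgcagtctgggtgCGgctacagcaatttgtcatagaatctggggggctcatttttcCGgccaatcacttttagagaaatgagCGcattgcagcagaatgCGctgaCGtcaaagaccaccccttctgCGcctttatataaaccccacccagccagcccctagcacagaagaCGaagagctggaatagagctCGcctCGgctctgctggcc
Rian: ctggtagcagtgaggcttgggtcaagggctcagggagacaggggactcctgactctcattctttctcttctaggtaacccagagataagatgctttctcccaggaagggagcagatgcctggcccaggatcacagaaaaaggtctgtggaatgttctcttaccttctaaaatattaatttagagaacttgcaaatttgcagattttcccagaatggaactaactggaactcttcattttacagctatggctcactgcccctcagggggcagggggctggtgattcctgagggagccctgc
Dio3: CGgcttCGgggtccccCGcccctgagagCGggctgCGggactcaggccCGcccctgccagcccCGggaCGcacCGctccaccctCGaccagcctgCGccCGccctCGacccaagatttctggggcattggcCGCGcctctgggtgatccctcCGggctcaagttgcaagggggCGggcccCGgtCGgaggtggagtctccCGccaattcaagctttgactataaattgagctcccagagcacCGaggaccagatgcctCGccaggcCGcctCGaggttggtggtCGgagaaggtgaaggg
Peg3: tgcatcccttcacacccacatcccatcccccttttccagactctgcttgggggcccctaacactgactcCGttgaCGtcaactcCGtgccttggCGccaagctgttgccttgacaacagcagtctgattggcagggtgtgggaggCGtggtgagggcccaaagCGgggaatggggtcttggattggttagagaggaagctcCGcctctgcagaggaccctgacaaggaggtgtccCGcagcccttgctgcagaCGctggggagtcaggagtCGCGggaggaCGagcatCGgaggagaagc
The *Dio3* window holds 25 CpG, the *Meg3* window 13, the *Peg3* window 13, the *Dlk1* window 9 and the *Rian* window 0. Windows were found for 29 of the 37 genes, 44 windows in all, with a median of 15.5 CpG against 7 over the 32817 windows of all genes. The *Peg3* window and that of its divergent neighbour *Usp29*, which holds 17 CpG, share 263 bases. The letters TGCCGC, the hexamer bound by the imprint-keeping protein ZFP57 when methylated, stood on either strand in 12 of the 44 windows (27.3%) and in 11.6% of all windows. Each such match contains a CpG, and 11 genes had at least 1, *Meg3*, *Igf2*, *Plagl1*, *Grb10*, *Mest*, *Nnat*, *Nap1l5* and *Zdbf2* among them. The letters GCCATNTT, a core of the YY1 motif, were in 0 of the 44 windows and in 6.04% of all windows on either strand. These are matches of letters and not measured sites.

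*Nell1* itself (Entrez ID 338352) ran from 17.2 to 20.8 CPM in *Nell-1+/6R* and from 30.6 to 44.01 CPM in WT mice, without overlap (log2 fold change -0.93, edgeR adjusted p = 0.00015), so the targeted gene follows the genotype labels. Of the 37 imprinted genes, 9 lie on the same chromosome 7 as *Nell1*, at a distance of at least 43.0 Mb. *Zim1*, *Peg3* and *Usp29* lie 43.3, 43.2 and 43.0 Mb before it, *Inpp5f* 77.7 Mb after it, and the *Igf2* and *Kcnq1* genes 91.7 to 92.6 Mb after it. Their 8 tested members had a median log2 fold change of -0.03, and 0 were past an unadjusted p of 0.05, beside 3.26% of all genes, a share too low to read anything from 8 genes.

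Levels spanned a wide range. Per kilobase of merged exons, *Meg3*, a maternally expressed long noncoding RNA, was the most abundant at 267 CPM per kb over the 12 mice, and it took 0.423% to 0.527% of all counts of a mouse, the 6th highest mean count of all genes tested. *Gnas*, which encodes the stimulatory G protein alpha subunit, stood at 133 CPM per kb, *Nap1l5*, a nucleosome assembly protein retrogene, at 129 CPM per kb, and *Nnat*, a proteolipid of the endoplasmic reticulum, at 104 CPM per kb. *Peg13*, a noncoding RNA inside *Trappc9*, followed at 77.4 CPM per kb. At the low end, 5 genes had under 100 counts over all 12 mice together: *Zim1* with 91, *Asb4* with 72, *Airn* with 57, *H19* with 22 and *Phlda2* with 5. *Igf2*, which shares its control region with *H19*, had 18924 counts. The level of *Airn* per length is uncertain, since its spliced exons were used as its length while most of the gene is an unspliced transcript.

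**Figure D1:**
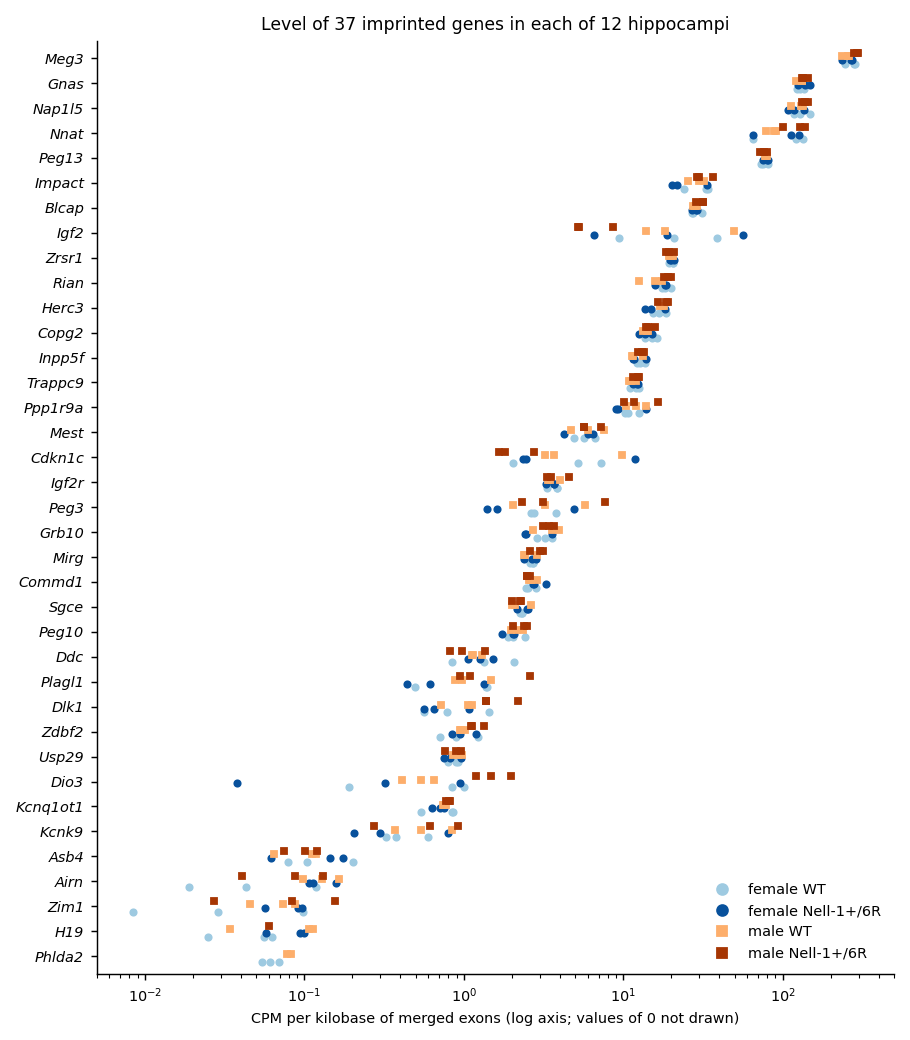
Level of each of the 37 genes in CPM per kilobase of merged exons on a log axis, 1 point per mouse, coloured by sex and genotype and ordered by the mean over the mice, with values of 0 not drawn. *Meg3* is highest at a mean of 267 CPM per kb, and *Igf2*, *Cdkn1c*, *Peg3*, *Plagl1* and *Dio3* spread more between mice than their neighbours in the order.

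No gene of the 36 tested passed the test between *Nell-1+/6R* and WT mice over both sexes. By edgeR's quasi-likelihood test with sex in the model, 0 of 36 were past an unadjusted p of 0.05, where 3.26% of all genes tested were, 0 were past an adjusted p of 0.05, where 0.0390% of all genes were, and 0 were past the study's pair of thresholds, an unadjusted p under 0.05 with a fold above 1.5, where 1.46% were. The values of the 6 mice of each genotype overlapped for every one of the 36, while 0.151% of all genes did not overlap. With DESeq2 and with limma-voom the number past an unadjusted p of 0.05 was also 0. Fewer cells of a type and less RNA per cell cannot be told apart in tissue of this kind. The median log2 fold change was 0.01 over the 36 and -0.00 over all genes, with a range over the 36 from -0.89 (*Igf2*) to 0.56 (*Zim1*). Paternally expressed genes had a median of 0.01, 11 of 18 above zero, and maternally expressed genes a median of 0.03, 10 of 15 above zero.
For most of the list the 12 mice set close limits on the difference. The 95% interval of the log2 fold change lay within 1.5-fold either way for 23 of the 36 genes, and for 69.5% of all genes. It was narrowest for *Zrsr1*, from -0.11 to 0.09, and *Peg13*, from -0.10 to 0.10. The 13 genes with wider intervals were *Dlk1*, *Dio3*, *Peg3*, *Zim1*, *Igf2*, *H19*, *Cdkn1c*, *Ddc*, *Plagl1*, *Asb4*, *Nnat*, *Kcnk9* and *Airn*, whose intervals reach past 1.5-fold on at least 1 side.

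**Figure D2:**
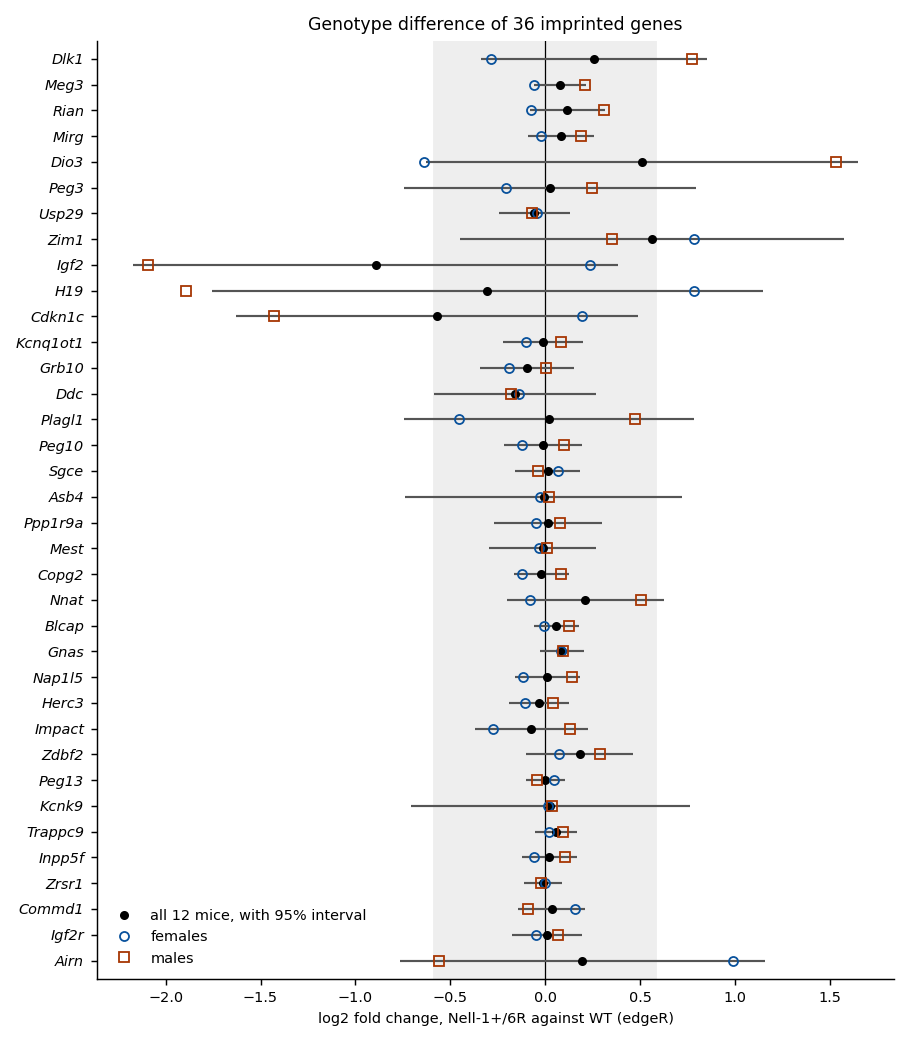
Log2 fold change of *Nell-1+/6R* against WT for the 36 tested genes in order of their clusters, with filled points and lines for all 12 mice and their 95% interval and open symbols for females and males alone. The grey band spans 1.5-fold either way, and every interval includes zero.

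In the Dlk1-Dio3 domain, the genes encode the Notch-family ligand DLK1 and the thyroid hormone-inactivating deiodinase DIO3 on the paternal copy, and the long noncoding RNAs Meg3, Rian (host of small nucleolar RNAs) and Mirg (host of miRNAs) on the maternal copy. *Meg3* (Entrez ID 17263, chromosome 12 from 109540996 to 109571729, plus strand) was at 4245, 4662 and 5103 CPM (lowest, median, highest) in WT mice against 4256, 4994 and 5369 CPM in *Nell-1+/6R*. These ranges overlap almost fully, with a log2 fold change of 0.08 ± 0.06399 (standard error; unadjusted p = 0.252 and adjusted p = 1.00, edgeR). *Rian* had a log2 fold change of 0.12 ± 0.0917, *Mirg* 0.08 ± 0.0814, *Dlk1* 0.26 ± 0.278 and *Dio3* 0.51 ± 0.5304, the smallest unadjusted p among them being 0.2304 for *Rian*.
Split by sex, 4 of the 5 genes stood higher in *Nell-1+/6R* males than in WT males without overlap, as did 4.76% of all genes. In WT males *Meg3* had 4690, 4635 and 4245 CPM. In *Nell-1+/6R* males it had 5071, 5369 and 5262 CPM. Females did not show this order, with 5054, 4435 and 5103 CPM in WT against 4256, 4917 and 4850 CPM in *Nell-1+/6R*. *Rian* went the same way, from 289, 319.9 and 228 CPM in WT males to 328, 346 and 362 CPM in *Nell-1+/6R* males. Its females overlapped, with 334, 318 and 362 CPM in WT against 290.3, 335 and 337 CPM in *Nell-1+/6R*. *Dio3*, a gene with only 265 counts in all, was at 0.835, 1.099 and 1.32 CPM in WT males against 2.43, 4.04 and 3.01 CPM in *Nell-1+/6R* males. The *Dio3* values of females spread over both ranges, 1.71, 0.386 and 2.05 CPM in WT against 0.0767, 0.652 and 1.91 CPM in *Nell-1+/6R*, the lowest of them a single count. *Dlk1* was at 6.03, 4.06 and 6.33 CPM in WT males against 7.78, 12.4 and 7.83 CPM in *Nell-1+/6R* males. Its females overlapped, with 8.13, 3.17 and 4.43 CPM in WT and 3.68, 3.18 and 6.09 CPM in *Nell-1+/6R* (fitted log2 fold change in females -0.29). *Mirg*, with 20.96, 17.3 and 17.6 CPM in WT males against 22.9, 21.9 and 18.8 CPM in *Nell-1+/6R* males, overlapped. Marker scores, each the mean of centred log2 CPM over a list, separated the same males for 6 of 14 lists, all lower in *Nell-1+/6R*. These were the leptomeningeal (0.12 to 0.73 in WT against -1.09 to -0.31), choroid plexus (-0.66 to 3.35 against -2.03 to -1.21), mural cell (-0.05 to 0.62 against -0.45 to -0.20), border-associated macrophage (-0.01 to 0.56 against -0.83 to -0.23), striatum (0.0327 to 0.144 against -0.0431 to 0.0319) and thalamus and habenula (-0.04 to 0.37 against -0.14 to -0.05) scores. Over the 12 mice the thalamus and habenula score differed by -0.20 between genotypes (exact permutation p = 0.00866, adjusted p = 0.0758). Of its 8 tested markers, 6 were lower and 2 were higher in *Nell-1+/6R*, the highest at 0.26 on the log2 scale. Only 1 of the 8 was past the test, *Slc17a6*, the vesicular glutamate transporter VGLUT2 (log2 fold change -1.23, adjusted p = 0.00347, edgeR). It was also the lowest of the 8, and the score was not tested without it. All 8 GABAergic neuron markers had a higher fitted level in *Nell-1+/6R* males, with a score that overlapped (-0.17 to -0.03 in WT against -0.06 to 0.12), and summed levels over both sexes of 559 to 634 CPM in WT against 584 to 689 CPM in *Nell-1+/6R*. The part of these markers in the values of the domain was not tested.
The difference between the sexes was tested as an interaction in a model with 4 groups. It reached 0.27 on the log2 scale for *Meg3* (unadjusted p = 0.0305), 0.38 for *Rian* (unadjusted p = 0.0294) and 2.17 for *Dio3* (unadjusted p = 0.0354), each higher in males, and 1.06 for *Dlk1* (unadjusted p = 0.0506), all from edgeR. After adjustment over all genes none of these passed, the adjusted p being 0.986 for each. Along the list, 4 of 36 genes were past an unadjusted interaction p of 0.05 against 3.09% of all genes, and 3 of the 4 lie in this domain, whose genes were measured in the same mice. With each of the 12 mice left out in turn, the interaction stayed positive, from 0.20 to 0.33 on the log2 scale for *Meg3*, from 0.26 to 0.49 for *Rian* and from 1.64 to 3.48 for *Dio3*. *Meg3* lost its interaction call in 6 of these fits (highest unadjusted p = 0.079), *Rian* in 4 (0.078) and *Dio3* in 6 (0.0957, edgeR). The list's count fell to 1, *Dio3*, without female *Nell-1+/6R* replicate 1 (2.12% of all genes in the same fit), and likewise without male WT replicate 3 (2.99%), while without female *Nell-1+/6R* replicate 3 it rose to 12 (10.3%). Without female WT replicate 3 it was 1, *Dlk1* (2.5% of all genes), without male *Nell-1+/6R* replicate 3 it was 2 (2.19%), and without female WT replicate 2 it was 7 (4.95%). The choroid plexus score described below was high in 1 *Nell-1+/6R* female, 2 WT females and 1 WT male, and with it as a covariate the interaction was 0.21 for *Meg3* (unadjusted p = 0.0601) and 1.89 for *Dio3* (unadjusted p = 0.0503), while *Dlk1* came to pass and the list's count was 3 (2.55% of all genes in the same fit). With the leptomeningeal score as a covariate the count was 6 (3.4% of all genes in the same fit). With the long-transcript score it was also 6 (4.38%), *Dlk1* among them in both. The p of *Rian* was at most 0.0353 over the 8 other settings that kept all mice (edgeR, unadjusted).

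**Figure D3:**
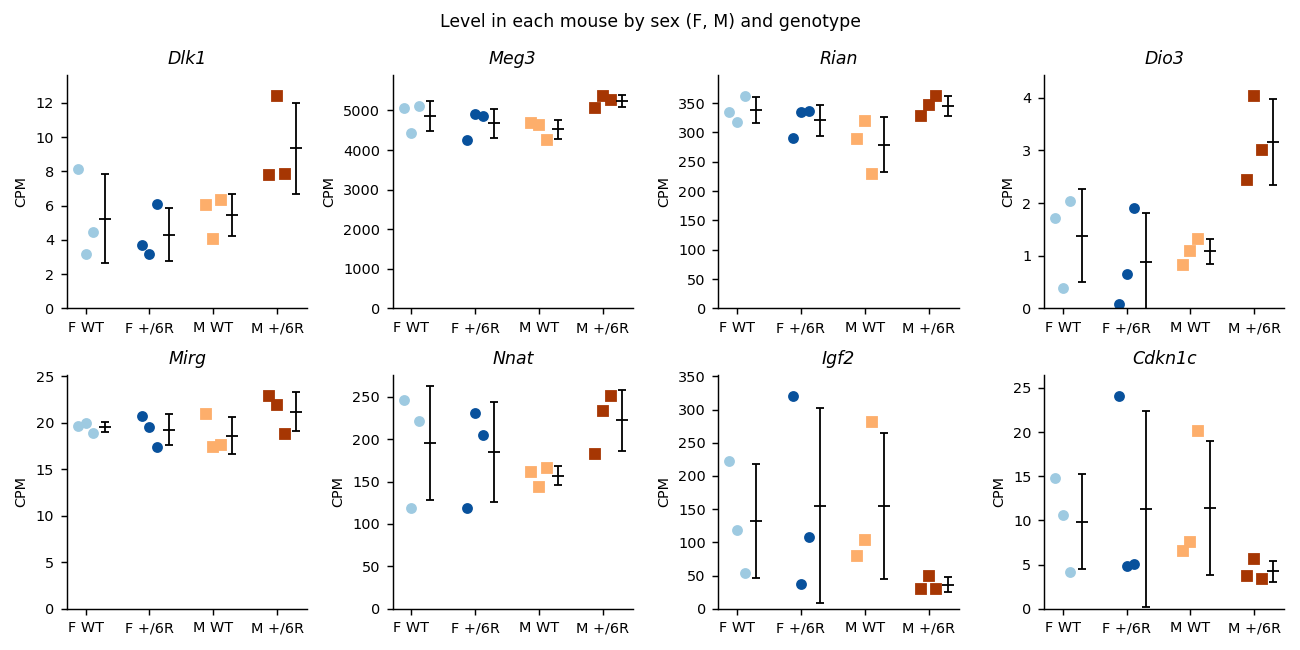
CPM of 8 genes in each mouse by sex (F, M) and genotype, with the mean and SD of each group of 3 beside its points, on axes that start at 0. In males, *Dlk1*, *Meg3*, *Rian*, *Dio3* and *Nnat* are higher and *Igf2* and *Cdkn1c* lower in *Nell-1+/6R* without overlap, and in females all 8 genes overlap.

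Only genotype means were removed for correlations, so the differences between the sexes given above remain in them and are not separate from these relations. On that basis, 3 of the 10 pairs of genes in the domain were past an adjusted p of 0.05 for Pearson's r over the 12 mice, adjusted over the 34 pairs of neighbours in all clusters. Of these, *Meg3* and *Dio3* had Pearson's r = 0.81 (permutation adjusted p = 0.02601), Spearman's rho = 0.80 (adjusted p = 0.0298) and r = 0.85 after removal of 2 mice. For pairs of genes these are the 2 mice most distant from the median of the first gene named. *Meg3* and *Rian* had Pearson's r = 0.78 (permutation adjusted p = 0.0142), Spearman's rho = 0.71 (adjusted p = 0.0901) and r = 0.64 after removal of 2 mice. *Dlk1* and *Dio3*, at opposite ends of the domain, had Pearson's r = 0.79 (permutation adjusted p = 0.0379), Spearman's rho = 0.80 (adjusted p = 0.04998) and r = 0.68 after removal of 2 mice. Of the other pairs, *Dlk1* and *Meg3* had Pearson's r = 0.57 (permutation adjusted p = 0.254), Spearman's rho = 0.58 (adjusted p = 0.2003) and r = 0.40 after removal of 2 mice, *Rian* and *Dio3* had Pearson's r = 0.39 (permutation adjusted p = 0.293), Spearman's rho = 0.55 (adjusted p = 0.173) and r = 0.84 after removal of 2 mice, and *Dlk1* and *Rian* had Pearson's r = 0.05 (permutation adjusted p = 0.9199), Spearman's rho = 0.26 (adjusted p = 0.602) and r = 0.04 after removal of 2 mice. *Mirg* had r between -0.05 and 0.25 to the other 4 genes.
The domain also holds small RNA genes. Reads of 50 bases on these IDs can come from a longer transcript or precursor and do not measure the mature miRNA. Of 65 such IDs in the table, 14 had 0 counts and 17 passed the filter. *AF357359* had the most, 628 counts, and *Mir3072* had 206. At an unadjusted p of 0.05, 1 of the 17 was higher and 0 were lower, beside 3.26% of all genes in either direction. This was *Mir540*, with 14 counts over the *Nell-1+/6R* mice and 4 over the WT mice (log2 fold change 1.604, unadjusted p = 0.0409, adjusted p = 1.00, edgeR). The lowest *Nell-1+/6R* mice had 1 count and the highest WT mouse had 2, so the genotypes overlapped. Both mature arms are shown with the seed, bases 2 to 8, in capitals, from RefSeq on the plus strand at chr12:109586085-109586107 and chr12:109586122-109586141.
mmu-miR-540-5p: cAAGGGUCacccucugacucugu
mmu-miR-540-3p: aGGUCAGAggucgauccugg
The seeds of the arms differ, and neither arm was quantified here.

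*Igf2* and *Cdkn1c*, growth-control genes of distal chromosome 7, were lower in *Nell-1+/6R* males than in WT males without overlap, as were 5.68% of all genes. *Igf2* (Entrez ID 16002, chromosome 7 from 142650768 to 142666816, minus strand), insulin-like growth factor II, paternally expressed in many tissues but from both copies in choroid plexus and leptomeninges, was at 53.6, 112 and 281 CPM (lowest, median, highest) in WT mice against 29.7, 43.5 and 320.3 CPM in *Nell-1+/6R*. A single *Nell-1+/6R* mouse thus held the highest value of all, and the log2 fold change of -0.89 ± 0.595 had an interval from -2.17 to 0.38 (unadjusted p = 0.155, edgeR). Leaving out single mice moved it from -1.52 without female *Nell-1+/6R* replicate 1 to -0.45 without male WT replicate 3, and it passed an unadjusted p of 0.05 without female *Nell-1+/6R* replicate 1 and without female WT replicate 3. In males alone, *Igf2* was at 79.7, 104 and 281 CPM in WT against 29.7, 49.3 and 30.1 CPM in *Nell-1+/6R*, without overlap. In females it was at 223, 119 and 53.6 CPM in WT against 320.3, 37.7 and 108 CPM in *Nell-1+/6R*, which overlap. The interaction was -2.32 on the log2 scale (unadjusted p = 0.0325, adjusted p = 0.986, edgeR). That call was lost without any of 6 mice in turn, and edgeR's unadjusted p was 0.157 at most, without female *Nell-1+/6R* replicate 1.
*Cdkn1c*, the maternally expressed inhibitor of cyclin-dependent kinases known as p57, was at 4.16, 9.09 and 20.1 CPM (lowest, median, highest) in WT mice against 3.403, 4.92 and 24.1 CPM in *Nell-1+/6R*. Males had 6.59, 7.53 and 20.1 CPM in WT against 3.72, 5.58 and 3.403 CPM in *Nell-1+/6R*, without overlap. Females had 14.8, 10.7 and 4.16 CPM in WT against 24.1, 4.81 and 5.03 CPM in *Nell-1+/6R*, which overlap. The interaction was -1.62 on the log2 scale (unadjusted p = 0.0961, edgeR), not past the threshold. *H19*, the maternally expressed noncoding RNA beside *Igf2*, had 0 to 3 counts per mouse, too few to compare. *Kcnq1ot1*, the paternally expressed RNA antisense to *Kcnq1*, was at 70.05 ± 10.6 CPM in WT against 69.7 ± 6.63 CPM in *Nell-1+/6R* (SD, n = 6 each). *Phlda2*, a maternally expressed gene known for restraint of placental growth, had a single count in 5 WT mice and 0 counts over the 6 *Nell-1+/6R* mice, a total that allows up to 3.
*Igf2* and *Cdkn1c* are also expressed by the choroid plexus and the leptomeninges, and they were highest in the mice with the highest choroid plexus markers. The choroid plexus epithelium score, the mean of centred log2 CPM over 9 markers such as *Ttr*, was above 0 in 4 mice, 3 WT and 1 *Nell-1+/6R*, the lowest of them at 1.204, and below 0 in 8 mice, the highest of them at -0.57. The summed level of the 9 markers ran from 53.3 to 4668 CPM in WT against 45.3 to 5182 CPM in *Nell-1+/6R*. *Igf2* was at 119 to 320 CPM in the 4 mice and at 29.7 to 108 CPM in the other 8, and *Cdkn1c* at 10.7 to 24.1 CPM in the 4 and at 3.403 to 7.53 CPM in the other 8. Within the 8 mice, with genotype means removed, r with the score was 0.37 for *Igf2* (exact permutation p = 0.351, adjusted p = 0.678; rho = 0.14, exact p = 0.732) and 0.75 for *Cdkn1c* (exact permutation p = 0.1, adjusted p = 0.326; rho = 0.57, exact p = 0.267), and 0.12 and 0.44 after removal of the 2 mice most distant from the median of the score. Of the 36 genes, 7 had an unadjusted exact permutation p under 0.05 for r with this score within the 8 mice, and 0 had an adjusted p under 0.05 by r or by rho. These were *Nnat* (r = -0.88, exact p = 0.0125), *Plagl1* (r = -0.77, exact p = 0.0208), *Rian* (r = -0.85, exact p = 0.025), *Zdbf2* (r = -0.83, exact p = 0.0292), *Copg2* (r = -0.83, exact p = 0.0306), *Igf2r* (r = -0.80, exact p = 0.0333) and *Peg13* (r = 0.79, exact p = 0.0417), with adjusted p of 0.123 to 0.202 and r of -0.95 to -0.73 for the 6 negative ones and 0.74 for *Peg13* after removal of 2 mice. By rho, *Nnat* (rho = -0.90, exact p = 0.0181) and *Plagl1* (rho = -0.76, exact p = 0.0236) were under an unadjusted 0.05. No share of all genes is given for this score within the 8 mice, so the count of 7 is a description. With the score as a covariate, a setting chosen after the data had been seen, the log2 fold change was -0.23 for *Igf2* and -0.01 for *Cdkn1c*. The interaction of *Igf2* was then -1.15 (unadjusted p = 0.0224, edgeR). All 14 leptomeningeal fibroblast markers had a lower fitted level in *Nell-1+/6R* mice, 10 of them past an unadjusted p of 0.05, with summed levels of 89.5 to 259 CPM in WT against 56.4 to 168 CPM in *Nell-1+/6R*. Over the 12 mice, with genotype means removed, *Igf2* had r = 0.59 with the leptomeningeal score (permutation p = 0.0735, adjusted p = 0.279), rho = 0.77 (p = 0.00734, adjusted p = 0.0721) and r = 0.51 after removal of 2 mice. Within the sexes r was 0.67 in females and -0.08 in males. *Cdkn1c* had r = 0.36 (permutation p = 0.285, adjusted p = 0.628), rho = 0.62 (p = 0.0463, adjusted p = 0.231) and r = 0.27 after removal of 2 mice, with 0.38 in females and -0.14 in males. With that score as a covariate the log2 fold change of *Igf2* was -0.02. The part of either tissue in the *Igf2* and *Cdkn1c* values was not tested. The levels of *Igf2* and *Cdkn1c* themselves rose and fell together, with Pearson's r = 0.94 (permutation adjusted p = 0.00102), Spearman's rho = 0.93 (adjusted p = 0.00204) and r = 0.82 after removal of 2 mice.

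Over the list, males and females tended to opposite sides. In males 26 of the 36 fitted log2 fold changes were above zero (50.5% of all genes), and in females 12 of 36 were (49.0% of all genes). The median was 0.08 in males and -0.05 in females, beside 0.00 and -0.00 over all genes. The sign differed between the sexes for 28 of the 36 genes and for 55.3% of all genes. These counts are descriptions, since genes of a cluster and genes that follow the same score are not independent. Genotypes did not overlap in males for 9 of 36 genes, where 10.4% of all genes did not overlap, and in females for 0 of 36, where 6.00% did not. Of the 9, 7 were higher in *Nell-1+/6R* males (*Dlk1*, *Meg3*, *Rian*, *Dio3*, *Nnat*, *Gnas* and *Zdbf2*), a direction in which 4.76% of all genes did not overlap, and 2 were lower (*Igf2* and *Cdkn1c*), where 5.68% of all genes did not overlap in that direction. At an unadjusted p of 0.05 in males within the model of 4 groups, *Dlk1*, *Meg3*, *Rian*, *Dio3*, *Igf2* and *Cdkn1c* passed, 6 of 36 beside 3.38% of all genes, and in females 0 of 36 passed beside 2.84%. Each of the 6 had an adjusted p of 1.00. Between males and females as such, with genotype in the model, 0 of 36 genes were past an unadjusted p of 0.05, beside 4.73% of all genes, *Dlk1* being nearest with a log2 difference, males minus females, of 0.59 (unadjusted p = 0.054, edgeR).

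**Figure D4:**
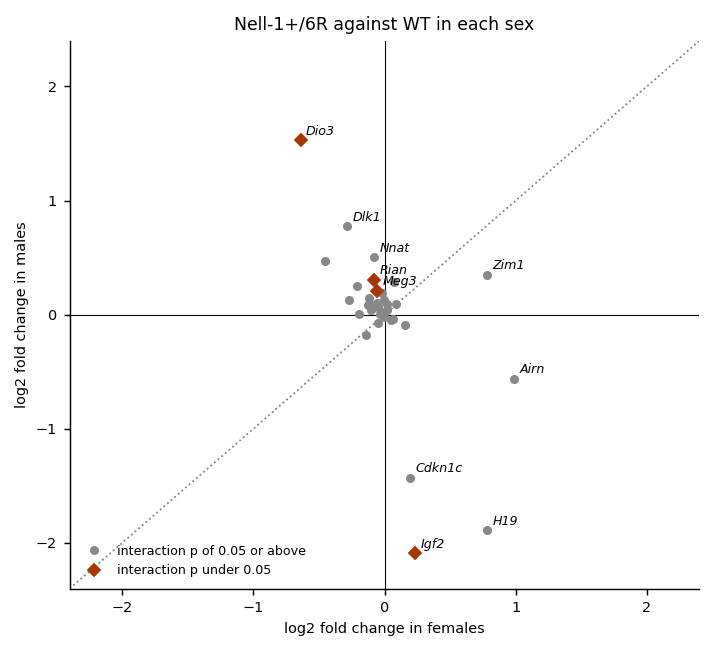
Log2 fold change of *Nell-1+/6R* against WT in males (vertical) against the same in females (horizontal) for the 36 tested genes, where diamonds mark an unadjusted interaction p under 0.05 and the dotted line marks equal change. *Meg3*, *Rian* and *Dio3* lie above the line and *Igf2* below it.

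The cluster on proximal chromosome 7 holds *Peg3*, a paternally expressed zinc finger protein known for maternal behaviour and fetal growth, the deubiquitinase *Usp29* on the opposite strand, and the maternally expressed zinc finger gene *Zim1*. *Peg3* (Entrez ID 18616, from 6703892 to 6730462, minus strand) was at 27.1, 39.8 and 76.3 CPM (lowest, median, highest) in WT mice against 18.6, 36.3 and 102 CPM in *Nell-1+/6R*. The genotypes overlapped (log2 fold change 0.02 ± 0.358, unadjusted p = 0.9496, edgeR), and the highest mouse of the 12 stood 5.502-fold above the lowest. *Usp29* spread far less, at 16.1 ± 1.13 CPM in WT against 15.5 ± 1.73 CPM in *Nell-1+/6R* (SD, n = 6 each). *Zim1*, with 1 to 16 counts per mouse, gave a log2 fold change of 0.56 with an interval from -0.45 to 1.57. *Usp29* and *Zim1* had Pearson's r = 0.72 (permutation adjusted p = 0.0379), Spearman's rho = 0.69 (adjusted p = 0.0901) and r = 0.62 after removal of 2 mice.
The spread of *Peg3* followed a score of long transcripts almost exactly. This score is the mean of centred log2 CPM over 1417 genes outside the list with over 10000 bases of merged exons and was added after the data had been seen. It ran from -0.13 to 0.18 in WT and from -0.23 to 0.25 in *Nell-1+/6R* mice. With genotype means removed, r over the 12 mice was 0.995 (permutation adjusted p = 0.00108; rho = 0.986, adjusted p = 0.00108) for *Peg3*, 0.986 (permutation adjusted p = 0.00108; rho = 0.965, adjusted p = 0.00108) for *Ppp1r9a* and 0.943 (permutation adjusted p = 0.00297; rho = 0.916, adjusted p = 0.0127) for *Kcnk9*. It was 0.8896 (permutation adjusted p = 0.0168; rho = 0.902, adjusted p = 0.0127) for *Grb10* and 0.886 (permutation adjusted p = 0.0216; rho = 0.923, adjusted p = 0.0127) for *Impact*. *Sgce* went the other way at r = -0.898 (permutation adjusted p = 0.00288; rho = -0.867, adjusted p = 0.0127). After removal of the 2 mice most distant from the median of the score these r were 0.994, 0.979, 0.911, 0.874, 0.811 and -0.842 in the same order. They were also found within each sex, at 0.996 in females and 0.996 in males for *Peg3*. By r, these 6 were the genes past an adjusted p of 0.05 among 108 relations, 36 genes with each of 3 scores. By rho, *Zdbf2* (rho = 0.87, permutation p = 0.00046, adjusted p = 0.0127; r = 0.75, adjusted p = 0.0784, and 0.60 after removal of 2 mice) and *Peg13* (rho = -0.83, permutation p = 0.00234, adjusted p = 0.0316; r = -0.78, adjusted p = 0.0784, and -0.66 after removal of 2 mice) passed as well, both with the long-transcript score. For the leptomeningeal score 0 of 36 passed by r or by rho. By r, 1 gene, *Zrsr1*, was at an unadjusted permutation p of 0.0214 (adjusted p = 0.154; r = 0.70, rho = 0.73 with adjusted p = 0.139, r = 0.70 after removal of 2 mice). By rho, *Igf2* (given above), *Cdkn1c* and *Trappc9* (rho = -0.61, permutation p = 0.0351, adjusted p = 0.211; r = -0.51, adjusted p = 0.279, and -0.38 after removal of 2 mice) were also under an unadjusted 0.05. No share of all genes is given for these relations, so the numbers of members that passed are descriptions. The part of the long-transcript score in the *Peg3* values was not tested beyond these relations. With it as a covariate, *Zdbf2* had a log2 fold change of 0.22 (unadjusted p = 0.0444, edgeR) and *Peg3* an unadjusted p of 0.3498. Merged exons were 13324 bases for *Peg3*, 14531 for *Ppp1r9a*, 12300 for *Kcnk9*, 10612 for *Sgce*, 9089 for *Grb10* and 5129 for *Impact*. The other members over 10000 bases had r with this score of 0.35 (*Meg3*), 0.31 (*Rian*), 0.34 (*Kcnq1ot1*), 0.75 (*Usp29*), 0.75 (*Zdbf2*) and -0.62 (*Gnas*). Members above that length thus went both ways.

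**Figure D5:**
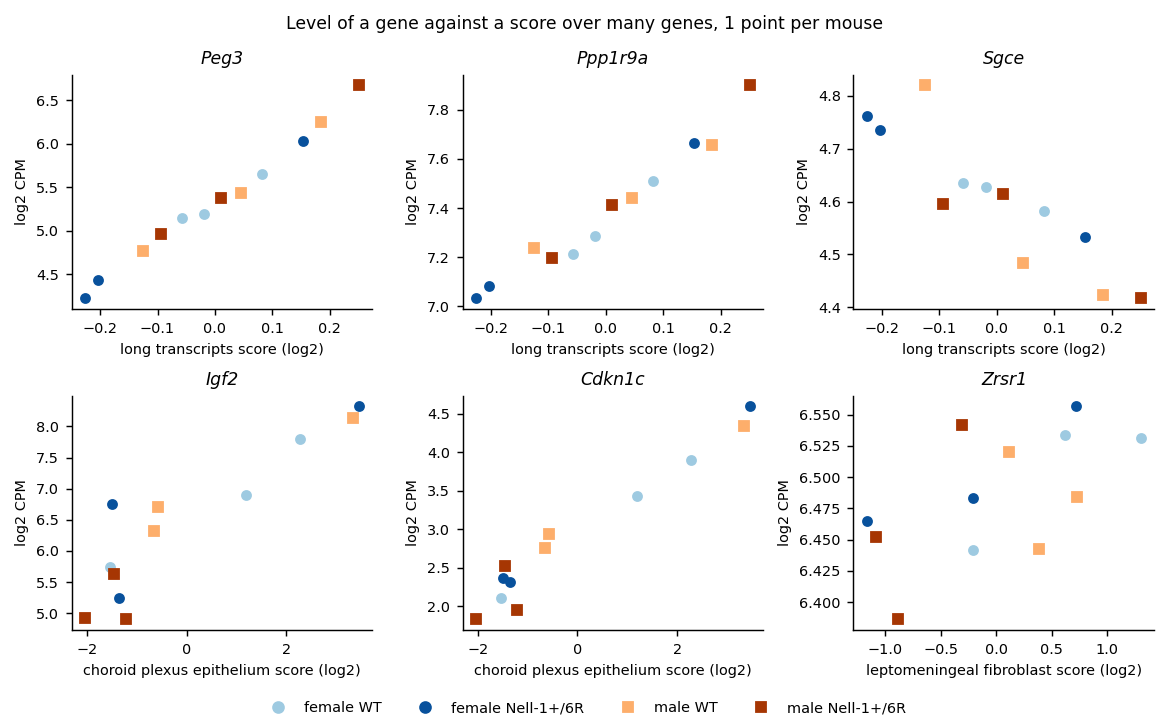
Log2 CPM of 6 genes against a score over many other genes, 1 point per mouse coloured by sex and genotype, with a long-transcript score for *Peg3*, *Ppp1r9a* and *Sgce*, a choroid plexus score for *Igf2* and *Cdkn1c* and a leptomeningeal score for *Zrsr1*. *Peg3* and *Ppp1r9a* rise along the long-transcript score and *Sgce* falls, and the 4 mice with a choroid plexus score above 0 have the highest *Igf2* and *Cdkn1c*.

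*Plagl1*, a paternally expressed zinc finger regulator of other imprinted genes (chromosome 10 from 13090832 to 13131694), was at 3.86, 9.18 and 11.5 CPM (lowest, median, highest) in WT mice against 3.45, 7.94 and 20.3 CPM in *Nell-1+/6R*. The genotypes overlapped (log2 fold change 0.02, interval from -0.74 to 0.78). *Grb10*, an adaptor that restrains insulin and IGF receptor signalling and is expressed from the paternal copy in neurons, was at 24.8, 30.9 and 35.8 CPM in WT mice against 22.003, 29.98 and 33.2 CPM in *Nell-1+/6R*, again overlapping. Its neighbour *Ddc*, the decarboxylase that makes dopamine and serotonin, had 5.82 ± 1.86 CPM in WT against 5.21 ± 1.18 CPM in *Nell-1+/6R* (SD, n = 6 each).
*Peg10*, a retrotransposon-derived gene, was at 12.6, 13.9 and 16.2 CPM (lowest, median, highest) in WT mice against 11.6, 13.7 and 16.7 CPM in *Nell-1+/6R*, nearly the same range. *Sgce*, which encodes epsilon-sarcoglycan, starts next to *Peg10* on the opposite strand and had 24.1 ± 2.36 CPM in WT against 24.3 ± 2.16 CPM in *Nell-1+/6R* (SD, n = 6 each). This pair had Pearson's r = -0.16 (permutation adjusted p = 0.881), Spearman's rho = -0.10 (adjusted p = 0.881) and r = -0.17 after removal of 2 mice, not past the test. *Sgce* and *Ppp1r9a*, the latter encoding the actin-binding synaptic scaffold neurabin, varied in opposite directions, with Pearson's r = -0.84 (permutation adjusted p = 0.00527), Spearman's rho = -0.80 (adjusted p = 0.0298) and r = -0.86 after removal of 2 mice. *Asb4*, a maternally expressed ubiquitin ligase adaptor, had 3 to 13 counts per mouse.
*Mest*, a paternally expressed hydrolase-fold protein, was at 18.6, 23.05 and 29.97 CPM (lowest, median, highest) in WT mice against 16.9, 22.97 and 28.4 CPM in *Nell-1+/6R*. Its medians were alike. *Copg2*, a coat protein subunit of secretory vesicles, shares 912 exon bases with *Mest* on the opposite strand, and since the sources used here do not give the strand setting of the counting, reads on those bases cannot be assigned for certain. *Copg2* had 73.8 ± 5.47 CPM in WT against 72.6 ± 5.801 CPM in *Nell-1+/6R* (SD, n = 6 each).
*Nnat* lies inside an intron of *Blcap* on chromosome 2 and was at 119, 163 and 246 CPM (lowest, median, highest) in WT mice against 119, 218 and 251 CPM in *Nell-1+/6R*. WT males had 161, 144 and 165 CPM and *Nell-1+/6R* males 182, 233 and 251 CPM, which do not overlap. Its females, at 246, 119 and 221 CPM in WT against 119, 231 and 205 CPM in *Nell-1+/6R*, overlapped. The interaction of *Nnat* was 0.58 on the log2 scale (unadjusted p = 0.133, edgeR). *Blcap* had 86.1 ± 4.51 CPM in WT against 89.8 ± 5.74 CPM in *Nell-1+/6R* (SD, n = 6 each).
*Gnas* (chromosome 2 from 174284320 to 174346744) was at 1356, 1447 and 1526 CPM (lowest, median, highest) in WT mice against 1389, 1516 and 1662 CPM in *Nell-1+/6R*. It had the smallest unadjusted p of the list for genotype, 0.121, with a log2 fold change of 0.09 ± 0.0532 (edgeR), and the exact permutation test over the mice gave p = 0.0909. Its males had 1466, 1356 and 1480 CPM in WT against 1484, 1601 and 1498 CPM in *Nell-1+/6R*, without overlap. Its females, at 1526, 1370 and 1427 CPM in WT against 1533, 1662 and 1389 CPM in *Nell-1+/6R*, overlapped. Its counts sum over several imprinted and biallelic transcripts.
*Nap1l5*, inside *Herc3*, was at 209, 238 and 272 CPM (lowest, median, highest) in WT mice against 199.6, 248 and 267 CPM in *Nell-1+/6R*, and *Herc3*, a ubiquitin ligase, at 157 ± 9.802 CPM in WT against 154 ± 19.4 CPM in *Nell-1+/6R* (SD, n = 6 each). *Impact*, which restrains the translational stress kinase GCN2 in neurons, was at 123, 159 and 175 CPM in WT mice against 103, 151 and 188 CPM in *Nell-1+/6R*. Both genes overlapped between genotypes. *Zdbf2*, a paternally expressed zinc finger gene, was at 9.03, 12.05 and 15.6 CPM in WT mice against 10.7, 14.2 and 16.9 CPM in *Nell-1+/6R* (log2 fold change 0.18 ± 0.13, unadjusted p = 0.189, edgeR). WT males had 11.96, 12.9 and 12.1 CPM and *Nell-1+/6R* males 14.2, 14.1 and 16.9 CPM, without overlap. WT females had 11.3, 9.03 and 15.6 CPM and *Nell-1+/6R* females 10.7, 12.1 and 15.1 CPM, which overlap.
*Peg13* was at 344, 368 and 381 CPM (lowest, median, highest) in WT mice against 341, 369 and 381 CPM in *Nell-1+/6R*, as steady as any gene of the list but *Zrsr1*, with a coefficient of variation of 3.99% over the mice. *Trappc9*, the trafficking gene around it, had 92.2 ± 5.51 CPM in WT against 95.8 ± 3.17 CPM in *Nell-1+/6R* (SD, n = 6 each). *Kcnk9*, the maternally expressed potassium channel TASK-3, ran from 3.97 to 10.3 CPM in WT against 2.53 to 11.2 CPM in *Nell-1+/6R*.
*Inpp5f*, a phosphoinositide phosphatase with an imprinted brain transcript, was at 94.9, 104 and 114 CPM (lowest, median, highest) in WT mice against 95.1, 106 and 116 CPM in *Nell-1+/6R*. *Zrsr1*, a splicing factor retrogene in an intron of *Commd1*, was at 86.8, 90.5 and 92.5 CPM in WT mice against 83.5, 88.7 and 93.99 CPM in *Nell-1+/6R*, with the lowest coefficient of variation of the list, 3.55%. *Commd1*, a regulator of copper transport, shares 412 exon bases with it and had 15.7 ± 1.03 CPM in WT against 16.1 ± 1.73 CPM in *Nell-1+/6R* (SD, n = 6 each). *Igf2r*, the receptor that clears IGF2, maternally expressed outside neurons, was at 30.9, 34.1 and 37.3 CPM in WT mice against 30.5, 33.4 and 42.4 CPM in *Nell-1+/6R*. *Airn*, the RNA that silences the paternal *Igf2r* in other tissues, had 1 to 8 counts per mouse.

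The list as a whole spread between mice about as much as other genes, with a median coefficient of variation of 13.8% against 15.01% over all genes tested. It held 14 genes under 10% and 10 genes above 40%. The biological coefficient of variation fitted by edgeR lay above the trend at the same abundance for 16 of the 36 genes and for 27.8% of all genes. The excess over the trend, as a difference, was largest for *Igf2*, at 0.639 against a trend of 0.109, followed by *Cdkn1c*, at 0.559 against 0.189, *Dio3*, at 0.621 against 0.261, and *Peg3*, at 0.423 against 0.118.
Genes that set or keep imprints were also measured. Of 26 such genes, 23 were tested and 0 were past an unadjusted p of 0.05, beside 3.26% of all genes, with a median log2 fold change of -0.02. *Dnmt1*, the maintenance DNA methyltransferase, had 58.8 ± 2.32 CPM in WT against 56.9 ± 5.14 CPM in *Nell-1+/6R* (SD, n = 6 each), and *Trim28*, the corepressor recruited by ZFP57, had 152 ± 9.02 CPM in WT against 152 ± 9.67 CPM in *Nell-1+/6R* (SD, n = 6 each). Among 39 tested imprinted genes that are not on the list and lie outside the Prader-Willi cluster, 0 were higher and 1 was lower at an unadjusted p of 0.05, beside 3.26% of all genes in either direction. This was *Slc22a3*, an organic cation transporter imprinted in the placenta beside *Igf2r*, at 1.005 ± 0.251 CPM in WT against 0.5096 ± 0.0815 CPM in *Nell-1+/6R* (SD, n = 6 each), with the lower level in *Nell-1+/6R* (log2 fold change -0.97, unadjusted p = 0.00111, adjusted p = 0.867, edgeR). In the IGF pathway 14 of 16 genes were tested, 0 were higher and 2 were lower at an unadjusted p of 0.05, beside 3.26% of all genes in either direction. These were *Igf1r*, the receptor through which IGF1 and IGF2 signal, with a log2 fold change of -0.21 (unadjusted p = 0.0337), and *Igfbp6*, a binding protein with preference for IGF2, with -0.43 (unadjusted p = 0.00791), each with an adjusted p of 1.00 (edgeR). The leptomeningeal markers given above and the 6 border-associated macrophage markers, with summed levels of 6.48 to 12.9 CPM in WT against 3.18 to 8.99 CPM in *Nell-1+/6R*, were lower with them, 14 of 14 and 6 of 6. Of the 8 mural cell markers, 7 were lower, 5 of them past an unadjusted p of 0.05 (edgeR), with summed levels of 135 to 227 CPM in WT against 114 to 165 CPM in *Nell-1+/6R*. The part of these markers in the *Slc22a3*, *Igf1r* and *Igfbp6* values was not tested. The Prader-Willi cluster itself, for comparison, had 2 of 7 tested genes past an adjusted p of 0.05 by the same test.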

How the data were processed

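RNA of the hippocampus of 12 mice was sequenced. Per the labels, the authors aligned 50-base reads to mm10 with HISAT2 2.1.0 and deposited raw read counts per Entrez gene ID from featureCounts 2.0.1, not normalized. The sources used here do not give the strand setting. The 17937 genes at or above 0.2 CPM in 2 or more mice were tested with edgeR 4.0.16 (R 4.3.3) in quasi-likelihood fits with TMM factors and sex as covariate, and p was adjusted by the Benjamini-Hochberg method over all of them. The filter used CPM on library totals, printed CPM use TMM library sizes, and scores use log2 CPM with a prior count of 2. Genotype effects within each sex and the interaction came from a model with 4 groups. The difference between males and females came from the fit with sex and genotype. Correlations were tested with 100000 permutations within genotype, or all 720 for 8 mice, two-sided, and differences between the sexes were not removed. The exact test of a single value used the 924 splits of 6 against 6 mice, whose smallest two-sided p is 0.00216. Levels per kilobase used merged GENCODE M21 exons, and positions are those of RefSeq GRCm38.p6, the same build as mm10. The edgeR test of genotype with sex in the model was tested on simulated counts. These shared a single dispersion, with changes placed only in genes of higher mean count. That simulation did not cover the interaction, the tests within a sex, the scores or the correlations.

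The members, lists and tests were chosen with earlier results of these data known. Every member is named, and values per mouse are given for members with an unadjusted p under 0.05 for genotype or interaction or whose genotypes do not overlap, and, as lowest, median and highest, for the lead genes of 16 clusters. That overlap within males counts was decided after the values were seen. Alternatives were limma-voom (limma 3.58.1), DESeq2 1.42.0, other size factors, filters, covariates, a replicate block, each sex alone and each mouse left out. Libraries hold 10834905 to 16016317 counts, so a CPM of 0.2 is only a few counts.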

Additional observations from a re-analysis of the deposited data

Results flagged for a closer look

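In groups of 6 mice, 3 values of the 72 groups examined stood apart from the other 5 mice on the log2 CPM scale by Dixon's test at its 95% critical value of 0.625, where chance flags about 1 in 20 groups. *Cdkn1c* was at 24.1 CPM in female *Nell-1+/6R* replicate 1, with the other 5 *Nell-1+/6R* mice at 3.40 to 5.58 CPM, and this mouse also had the highest choroid plexus score, 3.46. *Kcnq1ot1* was at 50.2 CPM in female WT replicate 2, with the other WT mice at 69.1 to 79.7 CPM. *Igf2r* was at 42.4 CPM in male *Nell-1+/6R* replicate 3, with the others at 30.5 to 34.4 CPM, and this mouse also had the highest long-transcript score, 0.25. On the CPM scale, a setting chosen after the data had been seen, 5 values stood apart, these 3 and 2 of female *Nell-1+/6R* replicate 1, *Igf2* at 320.3 CPM with the other *Nell-1+/6R* mice at 29.7 to 108 CPM and *Commd1* at 19.4 CPM with the others at 14.7 to 16.4 CPM.

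The genotype difference of 4 genes differed between the sexes by a test of that difference, at an unadjusted p under 0.05 and an adjusted p of 0.986 each (edgeR). The difference, males minus females, was 0.27 on the log2 scale for *Meg3*, 0.38 for *Rian*, 2.17 for *Dio3* and -2.32 for *Igf2*. The part of the choroid plexus score in these differences was not tested beyond the fits with it as a covariate.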

How the results depend on the processing

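Over 27 alternatives, 0 members were past an adjusted p of 0.05 in each. The number past an unadjusted p of 0.05, 0 of 36, became 1 without a filter (*Phlda2*, on 5 counts in all, beside 646 of 21453 genes). With the long-transcript score as covariate it was 1 (*Zdbf2*, beside 977 of 17937 genes). In males alone it was 8, where *Dlk1*, *Meg3*, *Rian*, *Dio3*, *Igf2*, *Cdkn1c*, *Nnat* and *Zdbf2* passed beside 885 of 17288 genes, and leaving out single mice gave 0 to 3. It was 3 without female *Nell-1+/6R* replicate 1 (*Igf2*, *Cdkn1c* and *Nnat*), 2 without female WT replicate 3 (*Igf2* and *Zdbf2*), 1 without female *Nell-1+/6R* replicate 3 (*Gnas*) and 1 without female WT replicate 1 (*Dlk1*), beside 865, 796, 914 and 478 of all genes in that order and 584 with all mice. The interaction count of 4 became 1 to 12 on leaving out single mice, in fits where 2.12% to 10.3% of all genes were past the same threshold. The sex count of 0 became 1 without a filter, 1 with the leptomeningeal score and 1 with the choroid plexus score as covariate, and 0 to 5 on leaving out single mice, with 5 without female WT replicate 3 and 4 without female *Nell-1+/6R* replicate 3. No share of all genes is given for the sex test in these fits, so these counts are not a result about the list. *Nell1* was at -1.0002 in females alone (adjusted p = 0.115) and -0.85 in males alone (adjusted p = 0.262, edgeR), and between -0.98 and -0.89 on leaving out single mice. Of 965 fits of single members, 939 kept their direction and side of the threshold or moved by less than the spread between mice, 16 came to pass an unadjusted p of 0.05 and 10 moved further. The labels do not say that replicate numbers pair the mice. The correlation of same-numbered mice ran from -0.36 to 0.36, and that of differently numbered mice of the same sex from -0.53 to 0.40. These values are too few to decide whether any mice were paired. With the replicate number as a block 0 members were past an unadjusted p of 0.05, and 510 of all genes against 584. Depth limits *Zim1*, *Asb4*, *Airn*, *H19* and *Phlda2*, each under 100 counts in all. Each library is a separate mouse, and p-values measure the spread between these mice alone.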
